A study of Mus musculus with 6 samples.

Results

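Fatty acid oxidation and PPAR target genes were followed in subcutaneous mouse hepatoma tumors with and without sorafenib (Sora). They are 33 genes chosen by name for their known roles. All 33 were found among the 26167 genes of the table, and 31 of them were tested. Fabp1 and Plin5 had too few reads for the test and are described by their values. Of the 33, 17 encode the steps of oxidation from the carnitine shuttle to electron transfer. The other 16 encode PPAR receptors and a coactivator, fatty acid binding and uptake proteins, lipid droplet proteins and further PPAR targets.

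Mitochondrial fatty acid oxidation imports long acyl chains through the carnitine shuttle and shortens them in repeated rounds of dehydrogenation, hydration, a second dehydrogenation and thiolysis, passing electrons to the respiratory chain. PPARα, PPARγ and PPARδ are nuclear receptors that are activated by fatty acids and bind DNA together with RXR. In normal liver PPARα drives much of the oxidation programme, whereas PPARγ is the main PPAR of fat cells.

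RNA was sequenced from 3 control tumors (labelled 1, 3 and 4) and 3 Sora-treated tumors (labelled 2, 3 and 4). All grew from Hepa1-6 cells, a mouse hepatoma line, placed under the skin of female C57BL/6J mice aged 6 to 8 weeks. Sora, an inhibitor of several kinases including the VEGF receptors, was injected into the peritoneum at 10 mg/kg on days 9, 11, 13 and 15. What the controls received, and the day on which these tumors were taken, are not given in the sources used here. Whole tumor tissue was used, so a level sums tumor cells, host cells and any attached tissue, and fewer cells of a type cannot be told apart from less RNA per cell. Nothing states whether each library is a separate mouse, so p-values measure the spread between these libraries.

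Total gene counts ran from 31073830 to 36205814 per tumor. Levels are given as FPKM, the fragments per kilobase of gene, scaled to the tumor's total count. The deposited gene lengths exceed the longest coding transcript by over 1.5 times in 6 members (Etfa, Ppara, Hadhb, Plin2, Ppargc1a and Eci2), and that of Angptl4 is 0.575 times it, so orders of level between genes, sums and ratios of FPKM depend on these lengths and fold changes do not. Changes are log2 fold changes of Sora-treated over control from edgeR's quasi-likelihood test, adjusted over 16513 genes, and a gene was called at an adjusted p under 0.05. The hepatoma markers Afp, at 323 to 483 FPKM, and Alb, at 974 to 1680 FPKM, were abundant in every tumor, whereas Ahsg, with 1 to 9 reads, and Apoh, with 0 to 3 reads, were at or near 0. Sora-treated tumor 3 lay nearer to the controls than Sora-treated tumors 2 and 4 for many of these genes. It was the highest of the 3 Sora-treated tumors in 19 of the 21 members with a fold change below 0, or 90.5%, against 54.9% of all tested genes with a fold change below 0.

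PPARs bind direct repeats of the half-site AGGTCA spaced by 1 base (DR1). RefSeq promoter windows of build GRCm38.p6, reaching from 250 bases before to 50 bases after a gene's start, were given for 28 of the 33 genes. They were searched on both strands for 2 half-sites with at most 2 mismatches over their 12 letters. A match was found in 5 of the 28 (17.9%), and in 4.4% of 27025 genes with a window. The 5 were Fabp1, Cd36, Plin2, Etfa and Slc25a20. Fabp1 had 1 mismatch and the other 4 had 2. The 250 bases before the start are shown for the 3 with a match in genes of fatty acid transport and storage, 5′ to 3′ on the gene's own strand, with the match in capitals.
Fabp1 (chr6:71199629-71199878, plus strand): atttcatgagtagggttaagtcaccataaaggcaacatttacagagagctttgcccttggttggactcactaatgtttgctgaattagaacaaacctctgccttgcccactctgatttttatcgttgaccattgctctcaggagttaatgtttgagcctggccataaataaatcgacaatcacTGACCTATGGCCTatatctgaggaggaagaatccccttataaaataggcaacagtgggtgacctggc
Cd36 (chr5:17835897-17836146, minus strand): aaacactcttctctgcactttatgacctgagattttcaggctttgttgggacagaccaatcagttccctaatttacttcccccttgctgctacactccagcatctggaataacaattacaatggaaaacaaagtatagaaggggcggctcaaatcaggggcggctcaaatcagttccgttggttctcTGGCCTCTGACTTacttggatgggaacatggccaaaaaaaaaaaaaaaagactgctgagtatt
Plin2 (chr4:86670060-86670309, minus strand): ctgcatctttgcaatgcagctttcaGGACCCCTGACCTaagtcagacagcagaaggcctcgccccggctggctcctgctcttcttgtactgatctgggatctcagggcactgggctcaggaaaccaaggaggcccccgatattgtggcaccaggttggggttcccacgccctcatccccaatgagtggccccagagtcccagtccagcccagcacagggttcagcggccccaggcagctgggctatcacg

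All 3 matches read as the repeat on the opposite strand. They begin 67, 63 and 225 bases before the start, respectively. The levels of the 3 genes, given by role further on, were far apart, with Fabp1 at or near 0 and Plin2 among the most abundant of the set. Lpl, Angptl4, Decr1, Fabp4 and Fabp5 had no window. A match describes letters in a window and is not a binding site.

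Across the 33 genes, Lpl was the 1 member called, and it fell. Of the 31 tested, 1 was called lower and 0 were called higher by edgeR, where 1.34% of all genes tested were called lower and 1.94% higher. At an unadjusted p under 0.05, 5 members were lower and 2 higher, against 8.69% and 8.53% of all genes. DESeq2 called 4 members lower (Lpl, Pdk4, Cd36 and Acot1) and 2 higher (Angptl4 and Plin4), where it called 3.71% of all genes lower and 4.0% higher. The groups' FPKM did not overlap in 7 members that were lower in the Sora-treated tumors (22.6%) and in 2 that were higher (6.45%). Over all genes tested these shares were 11.2% and 10.6%. The median log2 fold change of the tested members was -0.08, with 10 above 0 and 21 below, and that of all genes was 0.00 to 2 decimals.

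**Figure D1:**
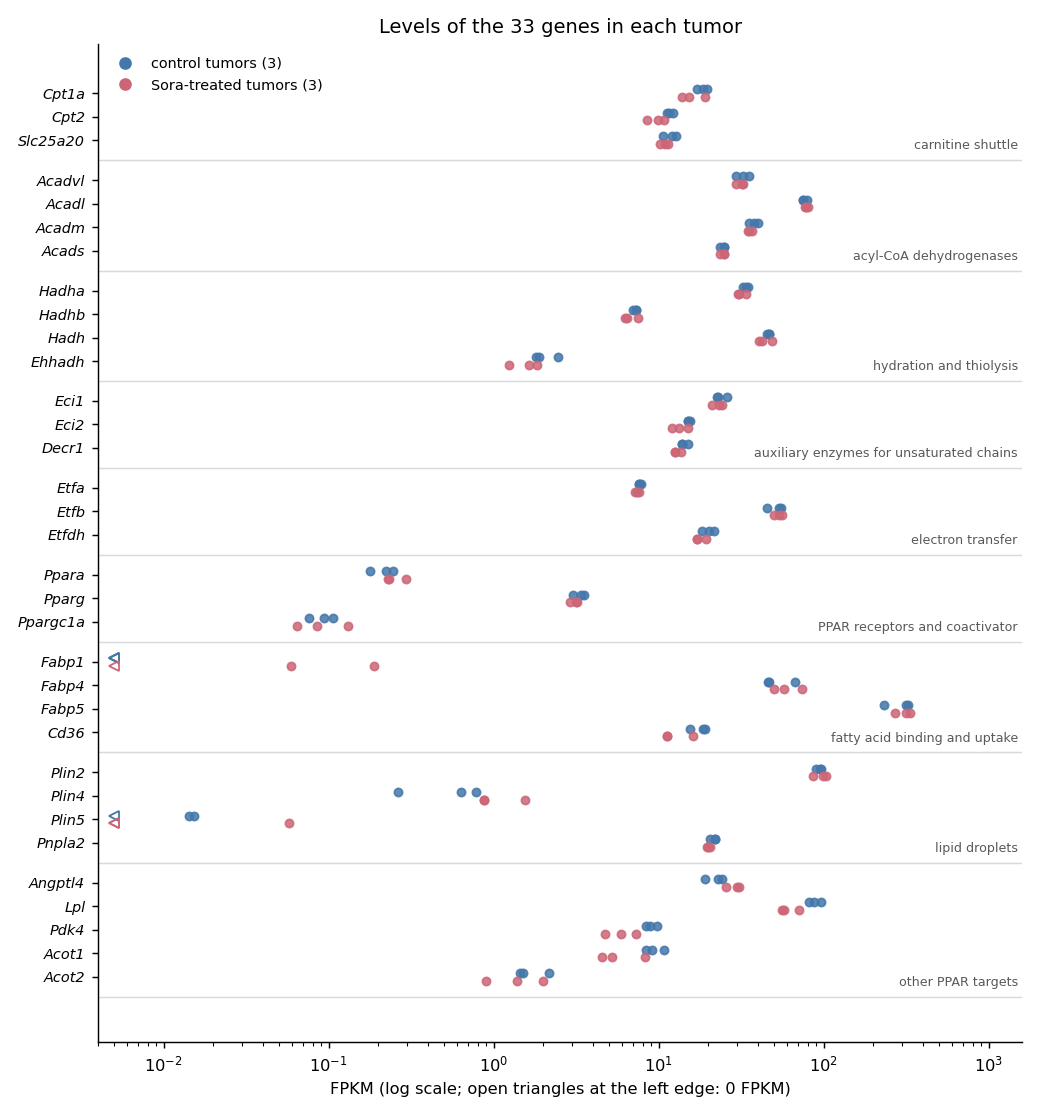
FPKM of each of the 33 genes in the 3 control and 3 Sora-treated tumors, on a log axis and grouped by role. Each point is 1 tumor and an open triangle marks 0 FPKM. Most oxidation genes sit close together in all 6 tumors, Fabp5 is the most abundant of the 33, and Fabp1 and Plin5 are at or near 0.

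The 17 oxidation genes lay close to their control levels after Sora. By edgeR 0 were called, 14 had a fold change below 0 and 3 above, and their median log2 fold change was -0.08. Their median absolute log2 fold change was 0.08, against 0.15 for all genes tested. The genes tested include those with as few as 10 counts in 3 tumors, so these medians are not matched for level. For 16 of the 17 the 95% interval of the change lay within 1.5-fold in either direction, the exception being Ehhadh. Their summed FPKM was 431.5 to 435.5 in the control tumors and 405.1, 437.5 and 408.0 in tumors 2, 3 and 4 of the Sora-treated group. The sum in tumor 3 was above every control and the sums in tumors 2 and 4 were below every control.

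The carnitine shuttle carries acyl chains into the mitochondrion. Cpt1a, which forms acylcarnitine at the outer membrane and is the regulated entry step, was at 18.66, 17.13 and 19.64 FPKM in control tumors 1, 3 and 4 and at 13.78, 19.003 and 15.27 FPKM in Sora-treated tumors 2, 3 and 4. The groups overlapped, with a log2 fold change of -0.20 (SE 0.11, edgeR adjusted p = 0.396). Cpt2, which returns the chain to CoA inside the mitochondrion, was at 11.6, 11.3 and 12.2 FPKM in the controls and at 9.89, 10.8 and 8.54 FPKM after Sora. Every Sora-treated tumor was below every control, but the change of -0.25 (SE 0.09) did not pass the threshold (edgeR adjusted p = 0.188). Cpt2 was the 1 gene of the 17 whose 95% interval excluded 0, at -0.46 to -0.05. Slc25a20, the carnitine exchanger of the inner membrane, ran from 10.6 to 12.8 FPKM in the controls and from 10.2 to 11.3 FPKM after Sora. Of the other CPT1 forms, named after their values were seen, Cpt1c was at 9.65 to 13.5 FPKM over the 6 tumors and Cpt1b at no more than 0.0728 FPKM.

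The acyl-CoA dehydrogenases open each round and differ in the chain length they prefer. Acadl, for long chains, was at 74.6, 74.8 and 79.7 FPKM in the controls and at 77.6, 76.5 and 80.8 FPKM after Sora. Its change was 0.05 with a 95% interval of -0.11 to 0.21. Acadm, for medium chains, was at 37.7, 35.2 and 40.1 FPKM in the controls and at 35.4, 36.7 and 34.8 FPKM after Sora. The very-long-chain enzyme Acadvl was at 32.5, 35.1 and 29.2 FPKM against 29.4, 32.3 and 32.1 FPKM, and Acads, for short chains, stayed between 23.4 and 25.0 FPKM in all 6 tumors. The groups overlapped for all 4 genes, and the summed FPKM of the 4 dehydrogenases was 168.4 to 174.0 in the controls and 167.4 to 171.1 after Sora.

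The next steps are carried out by the trifunctional protein, whose subunits are Hadha and Hadhb, by the short-chain hydroxyacyl-CoA dehydrogenase Hadh, and in peroxisomes by the bifunctional enzyme Ehhadh. Hadh was at 45.4, 46.9 and 46.4 FPKM in the controls and at 40.6, 48.4 and 42.1 FPKM after Sora. Hadha was at 32.3, 33.7 and 34.9 FPKM in the controls and at 30.5, 33.6 and 30.1 FPKM after Sora. Sora-treated tumors 2 and 4 were the lowest for both genes and tumor 3 was within or above the control range. Hadhb, which lies head to head with Hadha in RefSeq and encodes the other subunit, ran from 6.97 to 7.30 FPKM in the controls and from 6.28 to 7.51 FPKM after Sora. The changes of Hadha and Hadhb were alike in size, at -0.09 (SE 0.07) and -0.08 (SE 0.08). Ehhadh, a classical PPARα target of liver, was low at 1.89, 1.80 and 2.46 FPKM in the controls and at 1.63, 1.83 and 1.23 FPKM after Sora. It had the widest interval of the 17, from -0.82 to 0.06 around -0.38.

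Double bonds need auxiliary enzymes. The isomerase Eci1 was at 22.4, 26.1 and 22.9 FPKM in the controls and at 21.0, 24.1 and 23.1 FPKM after Sora. The second isomerase Eci2 was at 15.41, 15.03 and 15.04 FPKM in the controls and at 13.20, 14.99 and 12.02 FPKM after Sora, with tumor 3 just under the lowest control. The reductase Decr1 was at 13.87, 13.90 and 15.02 FPKM in the controls and at 12.56, 13.57 and 12.51 FPKM after Sora. Groups did not overlap for Eci2 and Decr1, but their changes of -0.17 (SE 0.08) and -0.14 (SE 0.08) did not pass the threshold (edgeR adjusted p = 0.336 and 0.408).

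Electrons leave through the electron transfer flavoprotein (Etfa and Etfb) and its dehydrogenase Etfdh. Etfb was at 53.6, 55.0 and 45.1 FPKM in the controls and at 53.3, 55.8 and 49.8 FPKM after Sora. Etfdh was at 20.27, 18.18 and 21.75 FPKM in the controls and at 16.99, 19.39 and 17.15 FPKM after Sora, and Etfa stayed between 7.196 and 7.788 FPKM. The levels of partner subunits should not be set against each other here, because the deposited length of Etfa is 9685 bases against 1392 for its longest coding transcript, and that of Hadhb 5922 against 2048.

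**Figure D2:**
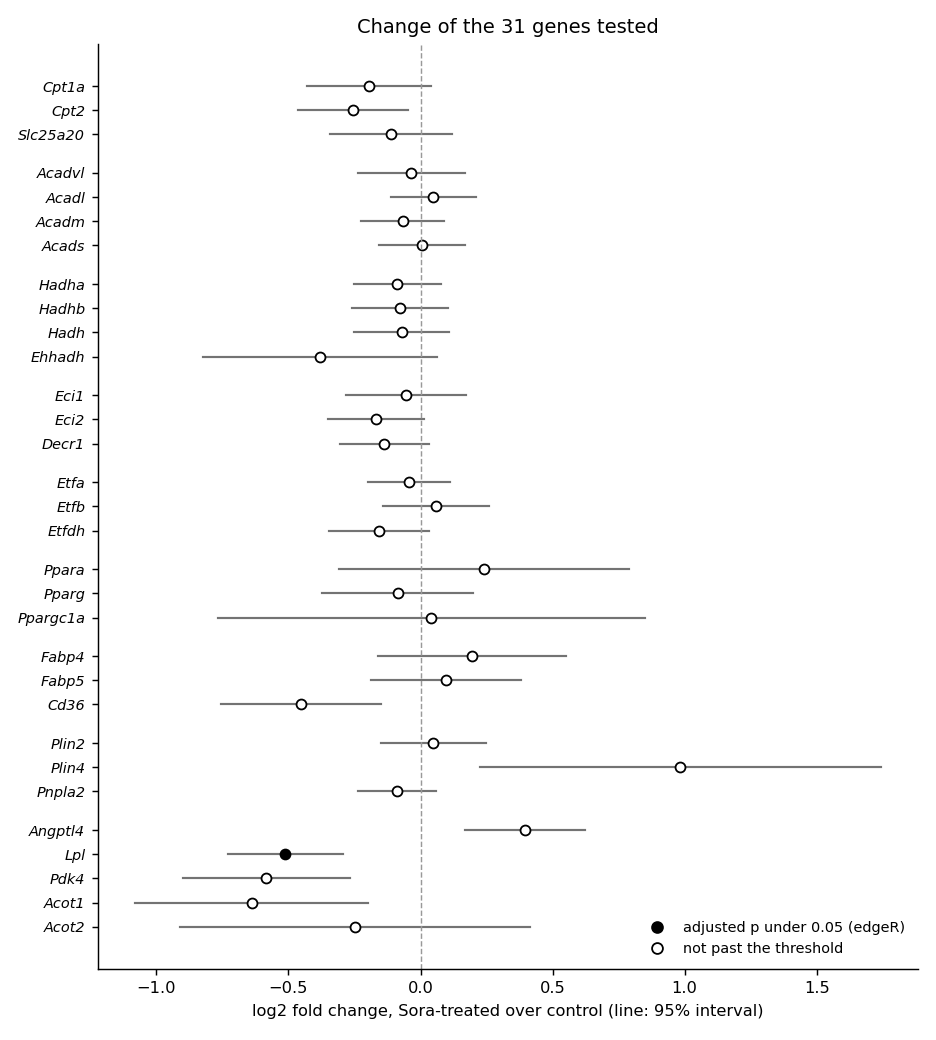
Log2 fold change of each tested gene in Sora-treated over control tumors, with its 95% interval from edgeR and the genes ordered by role as in the plot of levels. The filled point is Lpl, the 1 gene past the adjusted threshold. Apart from Ehhadh, the oxidation genes have narrow intervals near 0, and those of Plin4, Ppargc1a, Acot2 and Ppara are wide.

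Among the receptors, Pparg, the PPAR of fat cells and macrophages, was at 3.51, 3.02 and 3.37 FPKM in the controls and at 3.17, 3.18 and 2.91 FPKM after Sora. Ppara, the PPAR of liver, was at 0.25, 0.18 and 0.22 FPKM in the controls and at 0.23, 0.29 and 0.23 FPKM after Sora. The coactivator Ppargc1a, an inducer of mitochondrial genes, had 26 to 58 reads per tumor and between 0.06 and 0.13 FPKM. Their 95% intervals were -0.37 to 0.20 for Pparg, -0.31 to 0.79 for Ppara and -0.77 to 0.85 for Ppargc1a. Ppard, the third PPAR and not a member, is named after its values were seen. It had the highest FPKM of the 3 PPARs, a rank that depends on the gene lengths, at 10.9, 10.9 and 12.4 FPKM in the controls and 14.1, 12.7 and 12.7 FPKM after Sora. Its change of 0.22 (SE 0.08) did not pass the threshold (edgeR adjusted p = 0.199).

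The fatty acid binding proteins shuttle lipids within cells. Fabp5, the epidermal form that many cells carry, was at 325, 313 and 231 FPKM in the controls and at 333, 272 and 316 FPKM after Sora. It gave between 23.3% and 33.1% of the summed FPKM of the 33 genes. Fabp4, the form of fat cells and macrophages, was at 46.2, 46.7 and 66.7 FPKM in the controls and at 49.9, 74.2 and 57.3 FPKM after Sora. Neither passed the threshold (edgeR adjusted p = 0.768 and 0.599) and their groups overlapped. Fabp1, the liver form and a classical PPARα target, had 0 reads in each control and 3, 1 and 0 reads in Sora-treated tumors 2, 3 and 4. It was thus at or near 0 in every tumor, although its promoter window holds the closest DR1 match of the set.

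Cd36 encodes a fatty acid translocase of fat cells, macrophages and endothelium. It was at 18.6, 19.1 and 15.4 FPKM in the controls and at 11.2, 16.1 and 11.2 FPKM in Sora-treated tumors 2, 3 and 4. Tumors 2 and 4 were below every control and tumor 3 was within their range. Means were 17.7 ± 2.02 and 12.8 ± 2.82 FPKM (SD, n = 3 each). The change of -0.45 (SE 0.14, 95% interval -0.75 to -0.15) did not pass the threshold (edgeR adjusted p = 0.104), and passed it without Sora-treated tumor 3 (adjusted p = 0.00946). Without any 1 of the other tumors it did not pass (adjusted p = 0.104 to 0.368).

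Lipid droplets are coated by perilipins and opened by the lipase Pnpla2. Plin2, the general droplet coat, was at 89.2, 96.5 and 95.4 FPKM in the controls and at 86.6, 103 and 99.5 FPKM after Sora, with a 95% interval of -0.15 to 0.25 for its change. Pnpla2 was at 22.04, 20.434 and 21.82 FPKM in the controls and at 19.97, 20.433 and 19.61 FPKM after Sora, and its change of -0.09 did not pass the threshold (edgeR adjusted p = 0.560). Plin4, a perilipin of fat and muscle, was at 0.64, 0.26 and 0.78 FPKM in the controls and at 0.87, 1.55 and 0.88 FPKM after Sora. All 3 Sora-treated tumors were above the controls, with a change of 0.98 (SE 0.34, 95% interval 0.22 to 1.74) that did not pass the threshold (edgeR adjusted p = 0.162). Plin5, the perilipin of oxidative tissues and the neighbour of Plin4 in RefSeq, had 0 to 4 reads per tumor.

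Adipocyte markers are given beside Plin4 and Fabp4, which fat cells express. The summed FPKM of 12 adipocyte markers was 44.9, 43.2 and 60.0 in the controls and 57.0, 88.7 and 65.9 after Sora, and the groups overlapped. Of the 8 tested, 7 had a fold change above 0 and Adrb3 was at -0.50, with a median of 0.65 and 0 called. Adipoq, the fat cell hormone, was at 1.64, 1.61 and 3.18 FPKM in the controls and at 2.40, 4.27 and 3.21 FPKM after Sora. Plin1 and Cidec, droplet proteins of fat cells, had changes of 0.67 and 0.73 that did not pass the threshold (edgeR adjusted p = 0.216 and 0.177), and Ucp1 was at 0 FPKM in 5 of the 6 tumors. Sora-treated tumor 3 was the highest of the 6 for Plin4, Fabp4, Plin2, Adipoq, Plin1, Cidec and Cfd. The part of attached fat in these values was not tested.

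**Figure D3:**
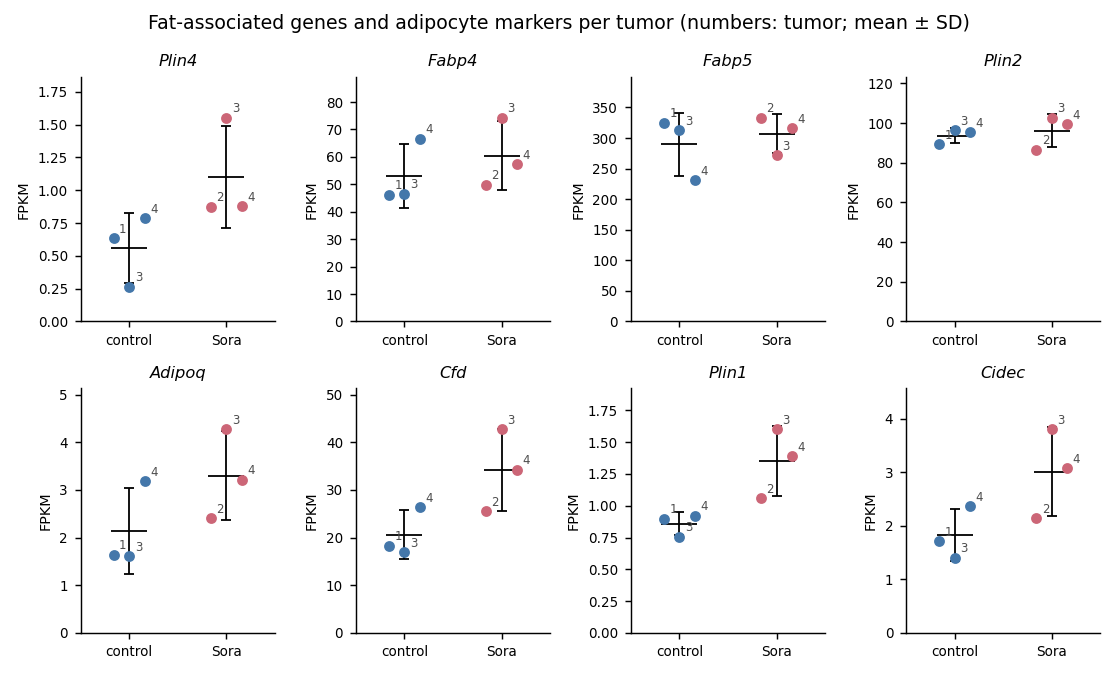
FPKM per tumor of Plin4, Fabp4, Fabp5 and Plin2 and of the adipocyte markers Adipoq, Cfd, Plin1 and Cidec. Points are tumors with their label number, and the black bar and line give the mean and SD of 3 tumors. Tumor 3 of the Sora-treated group is the highest point for Plin4, Fabp4, Plin2 and the 4 markers, and is not for Fabp5.

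Lpl encodes lipoprotein lipase, which releases fatty acids from circulating triglycerides. It fell in the Sora-treated tumors. Its level was 96.1, 87.7 and 81.2 FPKM in control tumors 1, 3 and 4 and 55.9, 71.0 and 57.6 FPKM in Sora-treated tumors 2, 3 and 4, so the groups did not overlap. Means were 88.32 ± 7.495 and 61.5 ± 8.243 FPKM (SD, n = 3 each). The log2 fold change was -0.51 (SE 0.10, 95% interval -0.73 to -0.29), a fold of 0.701 with an edgeR adjusted p of 0.0233. The call depended on single tumors. It was lost without control tumor 1 or 3 and without Sora-treated tumor 2 or 4 (adjusted p = 0.0753, 0.0555, 0.0946 and 0.128). It held without control tumor 4 or Sora-treated tumor 3 (adjusted p = 0.0477 and 0.00535). DESeq2 on the 5 deposited count columns, without Sora-treated tumor 4, also called it (adjusted p = 0.00329), and limma on FPKM with no filter on low values did not (adjusted p = 0.183).

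Angptl4, a secreted inhibitor of lipoprotein lipase that PPARs and hypoxia induce, lay on the other side. It was at 23.0, 19.1 and 24.1 FPKM in the controls and at 29.9, 25.6 and 30.7 FPKM after Sora, and every Sora-treated tumor was above every control. Means were 22.0 ± 2.61 and 28.7 ± 2.76 FPKM. The change of 0.40 (SE 0.10, 95% interval 0.17 to 0.62) did not pass the threshold with all 6 tumors (edgeR adjusted p = 0.0618) and passed it without Sora-treated tumor 3 (adjusted p = 0.0164). It did not pass without any 1 of the other 5 (adjusted p = 0.0847 to 0.263). The ratio of Angptl4 to Lpl FPKM, formed after their values were seen and so not tested, was 0.239, 0.218 and 0.297 in the controls and 0.534, 0.360 and 0.533 after Sora.

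Pdk4, a kinase that shuts off pyruvate dehydrogenase when fat is burned, was at 8.36, 9.75 and 8.89 FPKM in the controls and at 4.72, 7.30 and 5.88 FPKM after Sora. The groups did not overlap, with means of 9.003 ± 0.70 and 5.966 ± 1.294 FPKM. Its change of -0.58 (SE 0.14, 95% interval -0.90 to -0.27) lay just outside the threshold (edgeR adjusted p = 0.0527) and inside it without Sora-treated tumor 3 (adjusted p = 0.0118). Leaving out any 1 of the other tumors gave adjusted p = 0.0825 to 0.192.

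Acot1 and Acot2 encode acyl-CoA thioesterases of the cytosol and the mitochondrion, which split acyl-CoA into a free fatty acid and CoA. Acot1 was at 9.17, 10.7 and 8.42 FPKM in the controls and at 5.24, 8.30 and 4.55 FPKM after Sora, with tumor 3 just under the lowest control. Its change of -0.64 (SE 0.20, 95% interval -1.08 to -0.20) was past the threshold only without Sora-treated tumor 3 among the edgeR fits that left out 1 tumor (adjusted p = 0.00945, against 0.164 to 0.384 without each of the others), and not with all 6 (adjusted p = 0.116). Acot2 was at 1.497, 1.445 and 2.159 FPKM in the controls and at 0.892, 1.983 and 1.386 FPKM after Sora, and the groups overlapped. The neighbouring genes are near-copies in sequence, so reads may have been split between them and both values are uncertain.

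The 5 further PPAR targets, Angptl4, Lpl, Pdk4, Acot1 and Acot2, were the 1 role group whose summed FPKM did not overlap between the groups. It was 138.1, 128.7 and 124.7 in the controls and 96.6, 114.1 and 100.2 after Sora. Lpl made up most of that sum in every tumor. Among the wider lists below, sums also did not overlap for ketone bodies and for omega-oxidation and other PPARα targets (both lower). They did not overlap for lipid droplets and lipolysis either (higher). Over all single genes tested, FPKM did not overlap in 11.2% (lower) and 10.6% (higher).

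**Figure D4:**
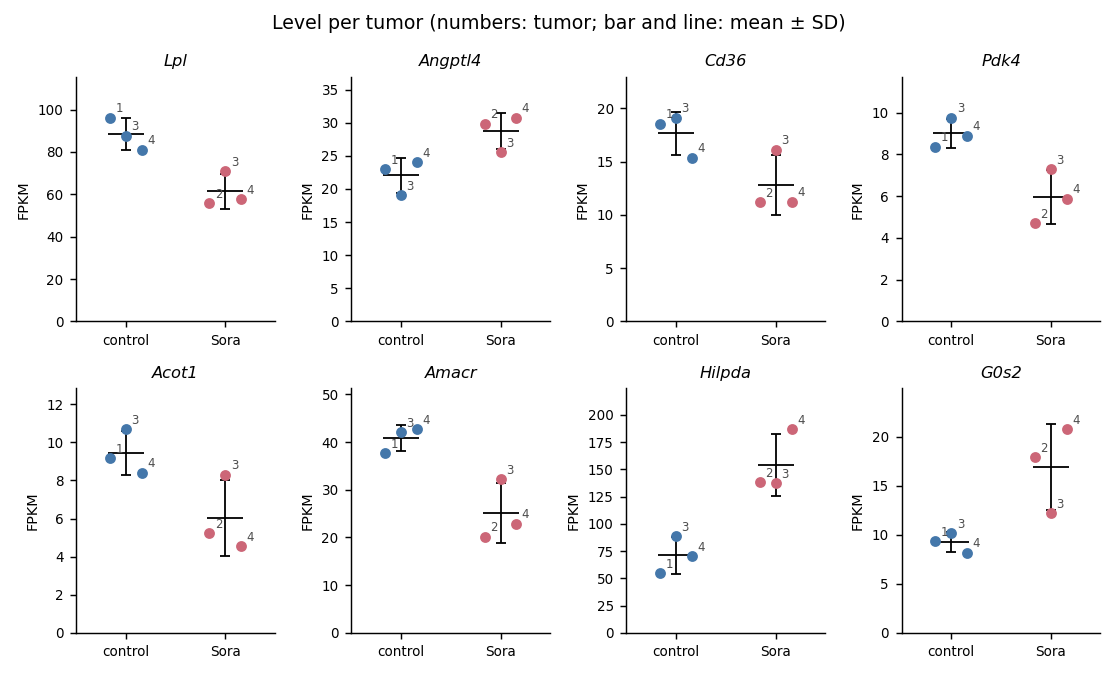
FPKM per tumor of the members Lpl, Angptl4, Cd36, Pdk4 and Acot1 and of the related genes Amacr, Hilpda and G0s2, from 0, with the label number beside each point and the mean and SD of 3 tumors. In Lpl, Cd36, Pdk4, Acot1 and Amacr the highest Sora-treated tumor is tumor 3, and in Angptl4, Hilpda and G0s2 the lowest Sora-treated tumor is tumor 3.

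Lpl and Cd36 are also genes of macrophages and fat cells, and Cd36 of endothelium as well. Most markers of macrophages and endothelium had fold changes below 0, whereas 7 of the 8 adipocyte markers tested were above 0. All 12 macrophage markers had a fold change below 0, and their summed FPKM was 2201, 2364 and 2176 in the controls and 1714, 2222 and 1881 after Sora. The clearance receptor Mertk was the 1 macrophage marker called, at -0.45 (edgeR adjusted p = 0.0310). Among the fits that left out 1 tumor this call held without Sora-treated tumor 3 and was lost in the other 5 (adjusted p = 0.0664 to 0.156). DESeq2 on the 5 deposited count columns, which lacks Sora-treated tumor 4, called it (adjusted p = 0.0474). The groups did not overlap in 5 of the 12 macrophage markers, all lower after Sora, against 11.2% of all genes tested. Adgre1, whose groups overlapped, was at 31.1 to 34.6 FPKM in the controls and 25.1 to 32.1 FPKM after Sora. Of 12 endothelial markers 9 were below 0 and 0 were called, with sums of 130.3 to 143.5 FPKM in the controls and 99.6 to 137.3 FPKM after Sora. Pecam1 had a change of -0.23 (edgeR adjusted p = 0.255). The part of macrophages, endothelium and fat cells in the values of Lpl and Cd36 was not tested.

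The sums of fibroblast markers did not overlap between the groups, whereas those of skeletal muscle, keratinocyte and hepatoma markers did. Fibroblast markers summed to 2076 to 2174 FPKM in the controls and 1592 to 1920 FPKM after Sora, and 1 of 9, Postn, was called lower (-0.68, edgeR adjusted p = 0.0167), a call that was lost without Sora-treated tumor 4 by edgeR (adjusted p = 0.0965) and not by DESeq2 on the 5 deposited count columns (adjusted p = 0.000200). Skeletal muscle also expresses Plin4 and Plin5, and its markers were above 0 in 11 of 12 with 0 called. Their sum was 125.9 to 168.9 FPKM in the controls and 138.1 to 202.4 FPKM after Sora, and Acta1 was at 40.1 to 48.8 FPKM in the controls and 46.9 to 57.9 FPKM after Sora. Keratinocyte markers, of a cell type rich in Fabp5, were above 0 in 11 of 11 with 0 called, and their sum ran from 217.9 to 685.0 FPKM in the controls and from 425.5 to 632.9 FPKM after Sora. Hepatoma markers summed to 2329 to 2947 FPKM in the controls and 2241 to 2351 FPKM after Sora. Of the 8 tested, Hnf4a (0.80) and Apoa1 (1.03) were called higher and Alb (-0.55) lower, with edgeR adjusted p-values of 0.0130, 0.0470 and 0.0410. All 3 calls were lost without Sora-treated tumor 4 (adjusted p = 0.0816, 0.152 and 0.175), where the changes of Hnf4a, Apoa1 and Alb were 0.70, 0.65 and -0.53. DESeq2 on the 5 deposited count columns, also without that tumor, called all 3 (adjusted p = 0.000118, 0.0190 and 0.00458). By limma on FPKM with all 6 tumors, Alb and Apoa1 were called in none of the 3 fits (adjusted p = 0.0597 to 0.311) and Hnf4a was lost in the fit with no filter on low values (adjusted p = 0.144). That unfiltered fit also lost Postn (adjusted p = 0.169), and Mertk was called in none of the 3 (adjusted p = 0.0713 to 0.213). The call of Hnf4a was also lost without control tumor 4 (adjusted p = 0.0510), that of Alb without control tumors 3 or 4 or Sora-treated tumor 2 (adjusted p = 0.0935 to 0.181), and that of Apoa1 without any 1 tumor but Sora-treated tumor 3 (adjusted p = 0.101 to 0.152) and under DESeq2 (adjusted p = 0.0627).

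The wider pathway was read from 101 further genes, of which 98 were in the table and 83 were tested. By edgeR 2 of the 83 were called higher and 2 lower, where 1.94% of all genes tested were called higher and 1.34% lower. The median log2 fold change of the 83 was -0.05. In ketone body metabolism 1 of 4 genes was called lower. Bdh1, which interconverts the main ketone bodies, was at 3.05, 3.14 and 4.41 FPKM in the controls and at 2.03, 2.46 and 1.85 FPKM after Sora, and the groups did not overlap. It fell by 0.73 (SE 0.17, edgeR adjusted p = 0.0444).

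In peroxisomal oxidation 1 of 18 genes tested was called. Amacr, a racemase for branched chains, was at 37.7, 42.1 and 42.7 FPKM in the controls and at 20.2, 32.3 and 22.9 FPKM after Sora, and fell by 0.69 (SE 0.14, edgeR adjusted p = 0.0307). Of the 10 further mitochondrial oxidation genes tested, 0 were called, with a range of -0.17 to 0.17. Likewise 0 were called of 13 receptor partners, 8 omega-oxidation and other PPARα targets, 11 uptake and triglyceride hydrolysis genes and 5 pyruvate dehydrogenase kinase and phosphatase genes. Of the 8 omega-oxidation and other PPARα targets, 6 were below 0 and 2 above, with a median of -0.25. Vnn1 (-1.47, 14 to 97 reads) and Txnip (-0.43) are named after their values were seen. Their groups did not overlap, but neither passed the threshold (edgeR adjusted p = 0.0724 and 0.0520).

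Both genes called higher belong to lipid droplets and lipolysis, where 11 of 14 tested were above 0 with a median of 0.23. Of these 11, Plin1, Cidec and Cidea (0.67, 0.73 and 0.85) are also in the adipocyte marker list, had the largest changes after Hilpda and G0s2, and were not called. Hilpda, a droplet protein that inhibits Pnpla2 and is induced by hypoxia, was at 54.9, 88.4 and 70.1 FPKM in the controls and at 138, 137 and 187 FPKM after Sora. It rose by 1.12 (SE 0.18, edgeR adjusted p = 0.0144). G0s2, another inhibitor of Pnpla2 and a PPAR target, was at 9.33, 10.2 and 8.16 FPKM in the controls and at 17.9, 12.2 and 20.8 FPKM after Sora, and rose by 0.89 (SE 0.20, edgeR adjusted p = 0.0378). The groups did not overlap for either gene. Pnpla2 itself was called in neither direction, as given above. All 4 of these calls were lost without Sora-treated tumor 4, whose counts were recovered from FPKM, with edgeR adjusted p = 0.0753 for Hilpda, 0.159 for Amacr, 0.175 for G0s2 and 0.192 for Bdh1. The log2 fold changes without that tumor were 0.94 for Hilpda, -0.65 for Amacr, 0.70 for G0s2 and -0.66 for Bdh1. DESeq2 on the 5 deposited count columns, which also lacks it, called Hilpda and Amacr (adjusted p = 1.56e-05 and 0.00976) and not G0s2 or Bdh1 (0.0552 and 0.0599). By limma on FPKM with all 6 tumors, Amacr, G0s2 and Bdh1 were called in none of the 3 fits (adjusted p = 0.0504 to 0.256) and Hilpda was lost in the fit with no filter on low values (adjusted p = 0.156). Calls of Amacr, G0s2 and Bdh1 were also lost without any 1 of control tumors 1, 3 and 4 or Sora-treated tumor 2 (adjusted p = 0.0542 to 0.141), and that of Hilpda without control tumor 4 (adjusted p = 0.0596).

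**Figure D5:**
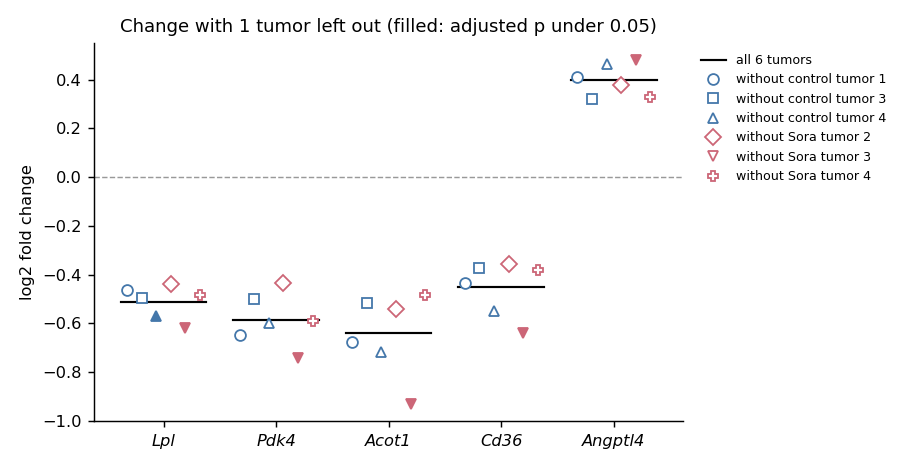
Log2 fold change of Lpl, Pdk4, Acot1, Cd36 and Angptl4 when each tumor is left out in turn, with the value from all 6 tumors as a black line and filled symbols where the edgeR adjusted p is under 0.05. All signs stay as they are with 6 tumors, and all 5 genes are filled without Sora-treated tumor 3.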

How the data were processed

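RNA from 6 tumors was sequenced on the BGISEQ-500. The authors deposited gene counts for 5 tumors and FPKM for all 6. The submitters' processing notes name fastp, HISAT2, HTSeq and build GRCm39. The study's methods name Bowtie2, build GRCm38 and FPKM by expectation maximization, so the aligner and build are uncertain. Coordinates are given only for promoter windows, which come from RefSeq on build GRCm38.p6 and not from the deposited data. In the 5 tumors with both, deposited FPKM equalled the count over gene length and total count. Counts of Sora-treated tumor 4 were recovered by that rule for 20951 genes, and 100% of values lay within 0.001 of a whole number. Another 342 genes had no known length. They held 512 reads, or 0.0015%, and were left at 0.

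The main test was edgeR 4.0.16 quasi-likelihood with TMM scaling in R 4.3.3 on all 6 tumors, keeping a gene if 3 or more tumors had 10 or more counts, with Benjamini-Hochberg adjustment. SE is the log2 fold change over the root of F. Intervals are 95%. Alternatives were DESeq2 1.42.0, limma 3.58.1, other scalings, other count filters, the replicate block and each tumor left out. The limma fits used log2(FPKM + 1) with and without a minimum of 1 FPKM in 3 tumors, and log2(FPKM + 0.1) with it. DESeq2 on the 5 deposited count columns was added after seeing the data. The fit was tested on simulated data. Members, lists and tests were chosen with earlier results of these data known, so lists are given by counts and medians with no p. The pathway lists leave out 1 gene, which is not reported here. Genes outside the 33 were named where called or as defining markers. Ahsg, Apoh, Adrb3, Ucp1, Cfd and Cidea were named outside that rule with their values seen. The few others are marked as named after their values were seen. Depth was 31073830 to 36205814 counts per tumor, which leaves the genes with few reads imprecise.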

Additional observations from a re-analysis of the deposited data

How the results depend on the processing

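The median log2 fold change of the members stayed below 0 in all 17 alternatives. Members called lower numbered 1 in the main test, 2 under total count scaling, 4 under DESeq2, 4 with no filter on low counts, 2 under DESeq2 on the 5 deposited count columns (chosen after seeing the data) and 0 under limma on log2(FPKM + 1) with no filter on low values. Members called higher numbered 0 in the main test and 2 under both DESeq2 and no filter on low counts. With 1 tumor left out they ranged from 0 to 4 (lower) and from 0 to 1 (higher), the highest both without Sora-treated tumor 3. The cause was not tested. Shares of all genes called are given above only for the main test and DESeq2. In the other settings a change in the members' count therefore cannot be told apart from a change over all genes. Without Sora-treated tumor 3 the edgeR adjusted p also fell for called genes outside the members, such as Mertk (0.0310 to 0.00423) and Amacr (0.0307 to 0.00174). Lpl was called in 11 of 17 alternatives. The groups share only the numbers 3 and 4. The tumors' deviations correlated at -0.064 and -0.066 for these numbers, and at -0.114 to 0.195 for unlike numbers. With 3 tumors per group this cannot tell whether the numbers pair the tumors. With the replicate block 0 members were called lower and 0 higher.

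Signs turned in 8 genes, none of them called in any alternative. Acads, main 0.01, went to -0.0029 under total count scaling, -0.0427 under the replicate block, -0.0027, -0.0028 and -0.0027 under limma with +1, +0.1 and no filter, and ranged from -0.0343 to 0.0356 with 1 tumor left out. Acadvl was 0.0102 under the replicate block and ranged from -0.1051 to 0.0522 with 1 tumor left out. Ppargc1a was -0.3065 under DESeq2 on the 5 deposited columns and ranged from -0.3022 to 0.2553. The other ranges with 1 tumor left out were -0.1118 to 0.0371 for Eci1, -0.0287 to 0.1345 for Etfb, -0.0464 to 0.182 for Fabp5, -0.0005 to 0.1274 for Plin2 and -0.5511 to 0.0005 for Acot2. Depth limits Ppargc1a, Ppara, Plin5 and Fabp1 most.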
